A study of Mus musculus with 8 samples.

Results

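Cholesterol synthesis, sensing, uptake and esterification genes were followed in the livers of mice that lack the microRNA miR-93 and of wild-type mice. The group was given as 28 gene symbols, and all 28 were found among the 56748 gene IDs of the count table. They comprise 4 genes that sense sterols and control the pathway, 19 enzyme genes from acetyl-CoA to cholesterol, 3 genes of uptake and transfer, and 2 genes of esterification. No measured value was used to choose them by the stated rule, although the list was drawn up with earlier results of these data known. The series holds 8 bulk liver RNA libraries, of which 4 carry the genotype miR-93 knockout and 4 the genotype wild-type. Mice of both genotypes received the same high fat-high fructose diet, with the label MASLD (metabolic dysfunction-associated steatotic liver disease) and a time of 16 weeks. Strain, sex, age and the tissues from which miR-93 was removed are not given in the sources used here. The labels do not say that the libraries of a genotype come from separate animals, so a p-value here sets a difference against the variation of these libraries alone, which may be technical.

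Liver cells make cholesterol from acetyl-CoA through mevalonate, the isoprenoid farnesyl diphosphate, squalene and lanosterol. SCAP carries the precursor of the transcription factor SREBP2, the product of Srebf2, to the Golgi for cleavage when membrane sterols are low. INSIG proteins hold SCAP back when sterols are plentiful, and the cleaved factor switches on the genes of synthesis and uptake together with NF-Y, which binds CCAAT boxes.

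In knockout liver most of the enzyme genes were lower while the gene of the transcription factor itself showed no detected change. Of the 27 genes that had enough counts to be tested, 16 fell and 1, Insig2, rose, and 10 did not pass the threshold. Among all 13204 genes tested, 10.7% fell and 10.4% rose by the same rule. The 16 genes fell by 1.63-fold (Acat2) to 5.36-fold (Fdps), and 14 of them were enzymes, out of 18 enzyme genes tested. The median log2 fold change was -1.10 over the 27 genes and -0.01 over all genes tested. Levels are CPM, the counts of a gene per 1e6 counts of its library, scaled between libraries by TMM, which assumes that most genes do not change. A log2 fold change gives knockout relative to wild type, with its standard error after ±. The adjusted p comes from edgeR's quasi-likelihood test, corrected by Benjamini-Hochberg across every tested gene, and a gene is called where it is under 0.05.

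The libraries differ in more than genotype. The mitochondrial genome gave 8.08% to 15.0% of all counts in knockout libraries and 25.4% to 77.8% in wild-type libraries, without overlap. Totals ran from 9187279 to 10966019 counts in knockout and from 5085860 to 7451026 in wild type. Wild-type replicate 4 stood apart, with the 77.8% mitochondrial share and 1131446 counts left for all other genes, against 4581983 to 9686379 in the rest. A count of 0 there allows up to 1.69 CPM after scaling, against 0.219 to 0.455 CPM in the other libraries, for counting error only. Mir93 had 0 counts in all libraries, so the knockout label was not checked by these counts. Results are given with and without wild-type replicate 4. Without it 17 of the 27 genes fell, the same 16 and Hsd17b7, and 2 rose, Insig2 and Npc2, beside 17.5% of 13777 tested genes lower and 17.8% higher. The median was then -0.97. In 15 of the genes, Scap and 14 of the 16 that fell, every knockout library lay below every wild-type library, and in 2, Insig2 and Soat1, every one lay above, beside 14.0% and 16.3% of all tested genes.

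**Figure D1:**
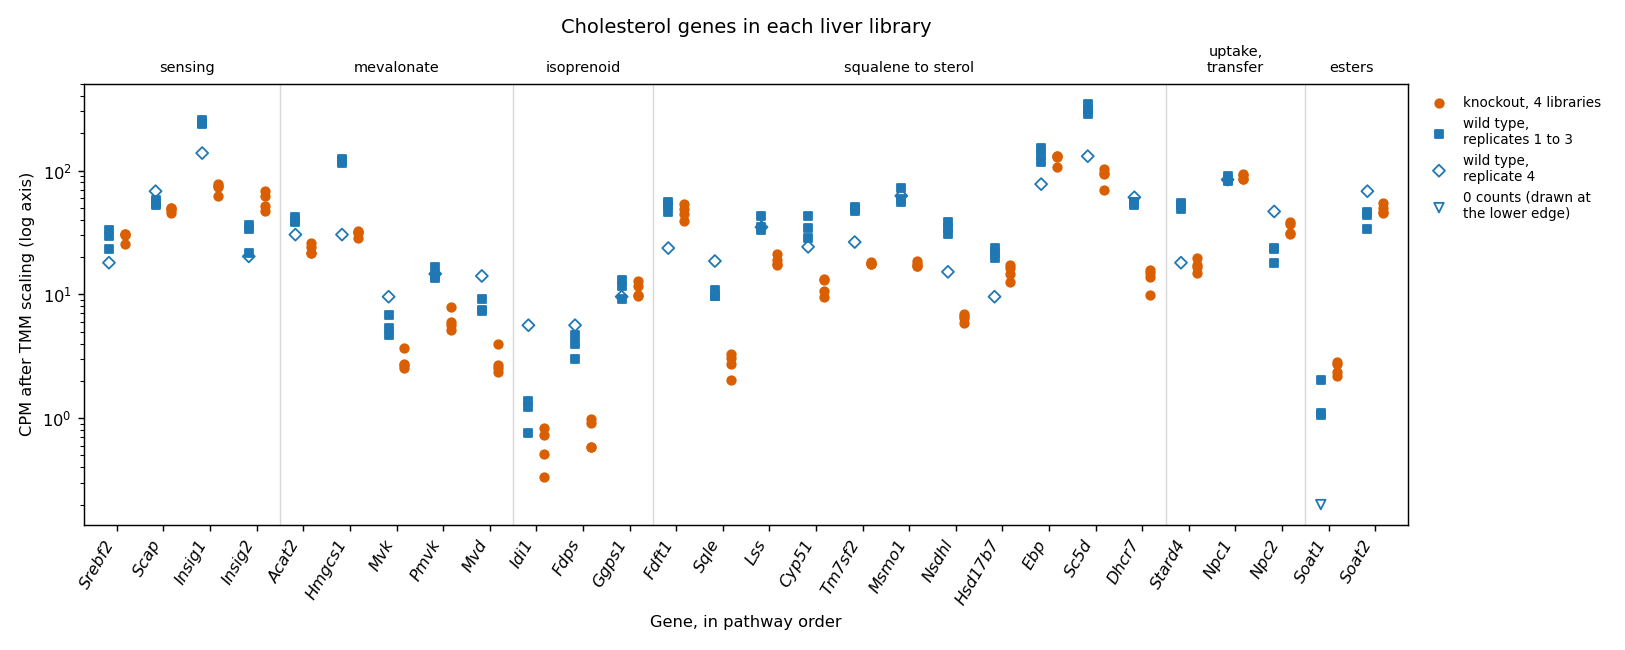
Level of the 28 genes in each of the 8 liver libraries, as CPM after TMM scaling on a log axis, with genes in pathway order. Knockout libraries are filled circles, wild-type replicates 1 to 3 filled squares and wild-type replicate 4 an open diamond. The circles lie below the squares in most enzyme genes, and the diamond departs from the squares in several genes, among them Hmgcs1 (30.4 CPM against 115 to 124 CPM).

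Scaling by the raw library totals alone, which keeps the mitochondrial reads in the denominator, moved the median of all genes from -0.01 to 0.54, and changes under it are read against that shift. Under it 3 of the genes stayed called lower (Fdps, Sqle and Dhcr7), none was called higher, and the median of the 27 genes was -0.49, beside 0.939% of all genes lower and 4.25% higher. All 16 genes that fell by TMM still had a negative fold change. All 16 also lay below the shifted median, but rescaling moves all genes up together, so that place was largely set in advance and adds no separate support. With scaling by the counts outside the mitochondrial genome alone, an alternative chosen after the data were seen, all 16 were called lower. The rank of a gene within its library does not depend on scaling. Dhcr7 ranked at the 85.0th to 87.1st percentile of tested genes in the wild-type libraries and at the 44.5th to 57.4th in the knockout libraries. Msmo1 moved from the 85.8th to 89.2nd percentile to the 59.1st to 61.8th. The ranks overlapped for Hmgcs1 (72.97 to 75.8 in knockout, 74.35 to 94.03 in wild type) and Stard4 (55.3 to 63.5 and 61.1 to 85.7). They were apart for the other genes of the 16.

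**Figure D2:**
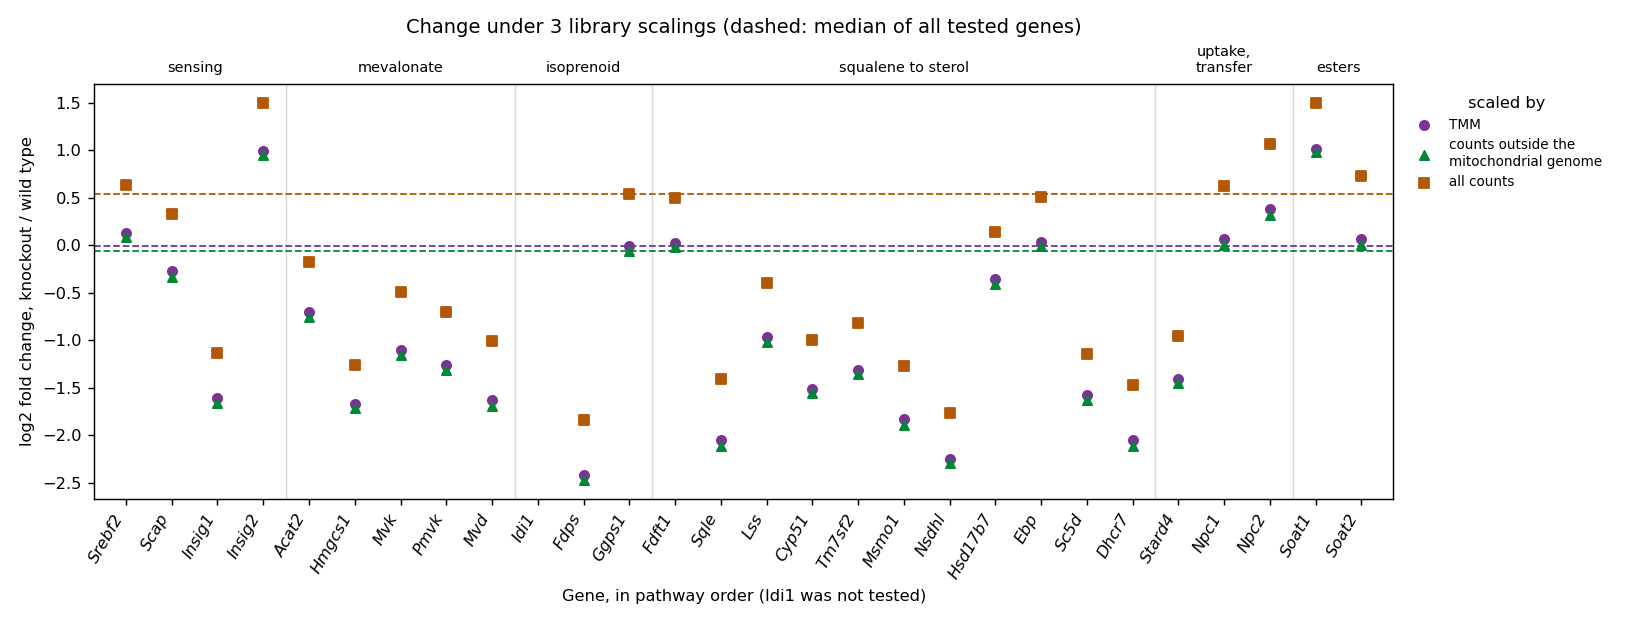
Log2 fold change, knockout over wild type, of the 27 tested genes under 3 ways of scaling the libraries, with the median of all tested genes under each as a dashed line. With all counts as the denominator the points and the median line move up together, from -0.01 to 0.54 for the median, and the 16 genes that fell stay below their line.

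Promoter sequence was looked at because many of these genes moved together. RefSeq promoter windows (GRCm38.p6, 250 bases before to 50 after the start) were found for 22 of the 28 genes. Both strands were searched for the sterol regulatory elements TCACCCCAC and TCACNCCAC, for the NF-Y box CCAAT and for the E-box CACGTG. The CCAAT box lay in 20 of the 22 genes (90.9%), against 41.1% of all 27025 genes with a window and 42.5% of those tested here. A gene counts here if any of its annotated starts holds the box. By single windows it lay in 20 of the 28 windows of these genes, against 37.4% of all 32851 windows. TCACCCCAC lay in 1, Hmgcs1, against 0.614% of all genes. TCACNCCAC, which covers the same site, lay in no other of the 22, against 1.44%. Among the genes tested here these shares were 0.742% and 1.49%. CACGTG lay in 5 (Dhcr7, Hsd17b7, Insig1, Sc5d and Scap), against 8.09% of all genes and 11.8% of those tested here. A match describes the letters in this window and shows no binding. The 160 bases before the start are printed for 6 genes: the holder of the sterol element (Hmgcs1), a pair of enzyme genes that fell with several CCAAT boxes (Mvk and Nsdhl), an enzyme gene that was not past the threshold and holds both CCAAT and CACGTG (Hsd17b7), and the INSIG genes, which moved in opposite directions. Capitals mark the motifs on either strand, so ATTGG is CCAAT on the other strand, and Insig2 is shown for the most upstream of its annotated starts, the single one of those with motifs in this stretch.
Hmgcs1, chr13:119690191-119690350, plus strand: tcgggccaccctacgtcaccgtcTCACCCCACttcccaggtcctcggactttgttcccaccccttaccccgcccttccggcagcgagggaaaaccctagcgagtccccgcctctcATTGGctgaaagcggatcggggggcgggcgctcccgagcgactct
Mvk, chr5:114444109-114444268, plus strand: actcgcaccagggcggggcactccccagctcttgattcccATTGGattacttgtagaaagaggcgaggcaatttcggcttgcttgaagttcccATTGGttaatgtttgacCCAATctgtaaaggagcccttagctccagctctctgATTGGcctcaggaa
Nsdhl, chrX:72918361-72918520, plus strand: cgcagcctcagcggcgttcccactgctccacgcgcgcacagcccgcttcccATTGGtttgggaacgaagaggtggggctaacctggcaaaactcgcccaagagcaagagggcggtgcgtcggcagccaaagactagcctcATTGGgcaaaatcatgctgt
Hsd17b7, chr1:169969206-169969365, minus strand: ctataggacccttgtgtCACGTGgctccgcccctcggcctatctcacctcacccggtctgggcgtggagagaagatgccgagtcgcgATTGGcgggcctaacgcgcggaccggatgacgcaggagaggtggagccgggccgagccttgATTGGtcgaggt
Insig1, chr5:28071252-28071411, plus strand: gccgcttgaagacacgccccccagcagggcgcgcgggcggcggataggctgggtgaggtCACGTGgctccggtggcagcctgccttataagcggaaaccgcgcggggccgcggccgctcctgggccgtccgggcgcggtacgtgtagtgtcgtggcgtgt
Insig2, chr1:121332590-121332749, minus strand: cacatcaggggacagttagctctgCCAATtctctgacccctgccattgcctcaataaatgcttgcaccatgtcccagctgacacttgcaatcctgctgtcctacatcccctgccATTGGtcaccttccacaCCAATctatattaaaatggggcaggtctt
Insig1 holds its CCAAT match elsewhere in the 300-base window. Several motifs were found in genes that fell (Mvk, Nsdhl), in one that rose (Insig2) and in one that was not called (Hsd17b7).

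Of the 4 sensors and regulators 1 fell (Insig1), 1 rose (Insig2) and 2 did not pass. Srebf2 (ENSMUSG00000022463) encodes the precursor of SREBP2, and its level was 25.4, 29.96, 30.8 and 30.8 CPM in the knockout libraries and 29.8, 23.4, 32.9 and 17.99 CPM in the wild-type libraries. The groups overlapped. The log2 fold change was 0.13 ± 0.17 (adjusted p = 0.628), with a 95% interval of -0.25 to 0.51. Scap (ENSMUSG00000032485), the sterol-sensing escort, was at 45.4 to 49.8 CPM in knockout and 53.0 to 68.0 CPM in wild type, apart in every library, yet its change of -0.27 ± 0.12 did not pass (adjusted p = 0.144). Scap read 0.34 under library size scaling, below the shifted median of all genes.

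Insig1 and Insig2 encode the anchors that hold SCAP in the endoplasmic reticulum. Insig1, itself a textbook target of SREBP2, stood at 62.3, 77.7, 73.8 and 75.3 CPM in the knockout libraries and at 257, 239, 242 and 138 CPM in the wild-type libraries. Every knockout library was below every wild-type library, also below replicate 4. Insig1 (ENSMUSG00000045294) fell 3.04-fold, with a log2 fold change of -1.61 ± 0.19 (adjusted p = 0.000233), and by -1.76 without wild-type replicate 4. Insig2, which has a liver transcript known to respond to fasting and insulin, was at 46.8, 67.7, 51.6 and 62.2 CPM in knockout and 36.2, 21.7, 34.0 and 20.2 CPM in wild type. All knockout libraries lay above all wild-type libraries. Insig2 (ENSMUSG00000003721) rose 1.99-fold (log2 fold change 0.99 ± 0.21, adjusted p = 0.00652), and by 0.90 without wild-type replicate 4 (adjusted p = 0.000196). Under library size scaling Insig1 (-1.13, adjusted p = 0.157) and Insig2 (1.51, adjusted p = 0.0727) kept their directions and were not called.

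The balance of the 2 INSIG transcripts can be read within a library, where no scaling enters. The log2 ratio of Insig1 to Insig2 counts was 0.41, 0.20, 0.51 and 0.28 in the knockout libraries and 2.82, 3.46, 2.83 and 2.76 in the wild-type libraries. On the linear scale Insig1 had 1.27 times the counts of Insig2 in knockout and 7.81 times in wild type. The difference in log2 ratio was -2.62, larger than the spread within either group (SD 0.14 in knockout and 0.33 in wild type, n = 4 each). Its two-sided exact permutation p was 0.0286, the smallest possible with 70 ways to assign 4 and 4 libraries, or 0.0343 adjusted over the 6 gene pairs examined. Both genes differed in the main test, so the ratio adds the per-library view and no separate evidence.

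The 5 genes that lead from acetyl-CoA to the activated isoprene unit all fell. Acat2, the cytosolic thiolase that joins acetyl-CoA units, was at 21.5, 26.2, 21.7 and 24.3 CPM in knockout and 42.4, 38.5, 39.0 and 30.4 CPM in wild type, apart in all libraries. Acat2 (ENSMUSG00000023832) fell 1.63-fold (-0.70 ± 0.14, adjusted p = 0.00479) and had the smallest fall of the 16. Its transcript shares 97.7% identity over 1477 bases with Acat3, which had 1775 to 2706 counts in 7 libraries and 334 in wild-type replicate 4, far more than the 54 to 336 of Acat2. It also matches the opposite strand of the Tcp1 transcript (98.7% over 445 bases), and Tcp1 fell (-0.53 ± 0.13, adjusted p = 0.0132). That match is one of similar sequence, and an overlap of the genes was not looked at. How the authors' counting divided such reads, and whether it used strand, are points not given in the sources used here, so the Acat2 value is uncertain.

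Hmgcs1, the cytosolic HMG-CoA synthase and the gene with the sterol element printed above, was at 28.4, 32.3, 31.5 and 31.8 CPM in the knockout libraries. In wild type it was at 119, 124 and 115 CPM in replicates 1 to 3 and at 30.4 CPM in replicate 4, which therefore lay inside the knockout range. Hmgcs1 (ENSMUSG00000093930) fell 3.19-fold over all 8 libraries (-1.67 ± 0.32, adjusted p = 0.00462) and by -1.94 without replicate 4. The 30.4 CPM of replicate 4 rest on 54 counts, against 761 to 944 counts in the other wild-type libraries.

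Mvk, mevalonate kinase, had 2.52, 3.70, 2.703 and 2.74 CPM in knockout and 6.82, 5.36, 4.70 and 9.56 CPM in wild type. The groups did not overlap, at low depth (31 to 44 and 17 to 54 counts). Mvk (ENSMUSG00000041939) fell 2.15-fold (-1.10 ± 0.28, adjusted p = 0.0168), and its call was lost without knockout replicate 3 (adjusted p = 0.0545) or knockout replicate 4 (0.0594), with edgeR in each case. Pmvk, the next kinase, was at 5.10 to 7.83 CPM in knockout and 13.5 to 16.7 CPM in wild type, and its level in replicate 4 (14.6 CPM) was like that of the other wild-type libraries. Pmvk (ENSMUSG00000027952) fell 2.39-fold (-1.26 ± 0.18, adjusted p = 0.000817). Mvd, the decarboxylase that ends this stretch, was at 2.36, 2.69, 2.56 and 3.96 CPM in knockout and 9.22, 7.42, 7.28 and 14.1 CPM in wild type, without overlap. Mvd (ENSMUSG00000006517) fell 3.10-fold (-1.63 ± 0.27, adjusted p = 0.00213).

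Of the isoprenoid genes 1 fell, 1 showed no detected change and 1 was too low to test. Idi1, the isomerase, had 4 to 11 counts in every library and was left out by the filter on low counts. Idi1 was at 0.337 to 0.837 CPM in the knockout libraries, at 0.758, 1.24 and 1.37 CPM in wild-type replicates 1 to 3 and at 5.62 CPM in replicate 4. Its transcript has the near-identical copies Gm13502 (100% over 684 bases, 0 counts in all libraries) and Gm35570 (97.7% over 681 bases, 0 to 10 counts), so its own counts are uncertain. Fdps, farnesyl diphosphate synthase, had 0.977, 0.589, 0.584 and 0.913 CPM in knockout and 4.67, 3.02, 3.94 and 5.62 CPM in wild type. Its groups were apart, and it fell 5.36-fold (-2.42 ± 0.35, adjusted p = 0.000868), the largest fall of the 27 genes tested in edgeR on all 8 libraries. Without wild-type replicate 4 that of Nsdhl was larger (-2.40 against -2.32). Fdps (ENSMUSG00000059743) rests on only 7 to 12 counts per knockout library and 10 to 37 per wild-type library. Its transcript has 5 near-identical pseudogene copies with 0 to 4 counts each per library, and reads matching several of them may have been dropped or divided by the authors' counting. Ggps1, geranylgeranyl diphosphate synthase, which leads away from sterols to protein prenylation, was at 9.67 to 12.7 CPM in knockout and 9.09 to 13.1 CPM in wild type. Its log2 fold change was -0.01 ± 0.18 (adjusted p = 0.980), with an interval of -0.40 to 0.39. The antisense gene Arid4b shares 257 bases with the Ggps1 transcript and had 18 to 259 counts against 17 to 151 for Ggps1. Reads of Arid4b could therefore stand in the Ggps1 value.

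From squalene onward 8 of 11 genes fell and none rose. Fdft1, squalene synthase, was at 38.8 to 53.8 CPM in knockout and at 55.3, 46.3, 52.3 and 23.6 CPM in wild type, with overlap (0.03 ± 0.22, adjusted p = 0.951). Its transcript overlaps the antisense gene Ctsb, which had 654 to 5282 counts against 42 to 639 for Fdft1, so reads of Ctsb could stand in its value. Sqle, squalene epoxidase, had 2.04, 3.28, 3.07 and 2.74 CPM in the knockout libraries and 10.7, 9.76, 9.71 and 18.6 CPM in the wild-type libraries. The lowest wild-type library stood well above the highest knockout library. Sqle (ENSMUSG00000022351) fell 4.13-fold (-2.05 ± 0.26, adjusted p = 0.000362) and was called in all 20 alternatives run.

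Lss, which folds the squalene epoxide into lanosterol, was at 18.9, 17.7, 17.3 and 21.3 CPM in knockout and 33.2, 43.0, 35.0 and 34.9 CPM in wild type, apart in all libraries. Lss (ENSMUSG00000033105) fell 1.95-fold (-0.96 ± 0.14, adjusted p = 0.000688). Cyp51, the lanosterol demethylase, was at 9.44, 13.3, 10.6 and 13.01 CPM in knockout and 42.6, 28.4, 34.3 and 24.2 CPM in wild type. Again the groups did not overlap, and Cyp51 (ENSMUSG00000001467) fell 2.85-fold (-1.51 ± 0.19, adjusted p = 0.000317). Tm7sf2, a sterol reductase, varied little within knockout (17.5, 18.3, 17.97 and 17.5 CPM) and was at 47.0, 50.7 and 49.0 CPM in wild-type replicates 1 to 3 and 26.4 CPM in replicate 4, still above knockout. Tm7sf2 (ENSMUSG00000024799) fell 2.48-fold (-1.31 ± 0.18, adjusted p = 0.000516).

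Msmo1 and Nsdhl encode enzymes that remove the methyl groups of lanosterol. Msmo1 stood at 17.0, 17.4, 18.7 and 17.1 CPM in knockout and 72.8, 55.9, 59.3 and 62.4 CPM in wild type, where replicate 4 lay among the others. Msmo1 (ENSMUSG00000031604) fell 3.57-fold (-1.83 ± 0.13) with the smallest adjusted p of the pathway (4.65e-06). Nsdhl, with a pair of CCAAT boxes in the stretch printed above, was at 6.43, 6.65, 6.94 and 5.86 CPM in knockout and 38.4, 34.2, 30.8 and 15.2 CPM in wild type. Its lowest wild-type value, in replicate 4, was still above all knockout libraries. Nsdhl (ENSMUSG00000031349) fell 4.75-fold (-2.25 ± 0.23, adjusted p = 7.06e-05). Hsd17b7, the ketoreductase of the same step, was at 12.6 to 17.3 CPM in knockout and at 21.7, 19.5, 23.5 and 9.56 CPM in wild type. Replicate 4 fell below all knockout libraries there, and the change of -0.36 ± 0.21 did not pass (adjusted p = 0.255). Without that library Hsd17b7 (ENSMUSG00000026675) was called lower at -0.50 (adjusted p = 0.00625), and that library holds 17 of its counts. With all 8 libraries limma-voom with quality weights also called it lower (-0.50, adjusted p = 0.00661).

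The last steps held 1 gene without a detected change and 2 strong falls. Ebp, the sterol isomerase, was at 108, 131, 130 and 129 CPM in knockout and 153, 116, 133 and 77.6 CPM in wild type, overlapping (0.04 ± 0.19, adjusted p = 0.909). Sc5d, the lathosterol desaturase, was at 69.8, 102, 93.0 and 96.2 CPM in knockout and 346, 287, 310 and 130 CPM in wild type. All knockout libraries were lower, and Sc5d (ENSMUSG00000032018) fell 2.98-fold (-1.58 ± 0.26, adjusted p = 0.00200). Dhcr7, the reductase of the last step of this branch, was at 9.93, 14.7, 15.8 and 13.8 CPM in knockout and 56.1, 52.9, 56.1 and 60.7 CPM in wild type. Replicate 4 was the highest wild-type library here, and Dhcr7 (ENSMUSG00000058454) fell 4.14-fold (-2.05 ± 0.16, adjusted p = 8.47e-06) and was called in all 20 alternatives.

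**Figure D3:**
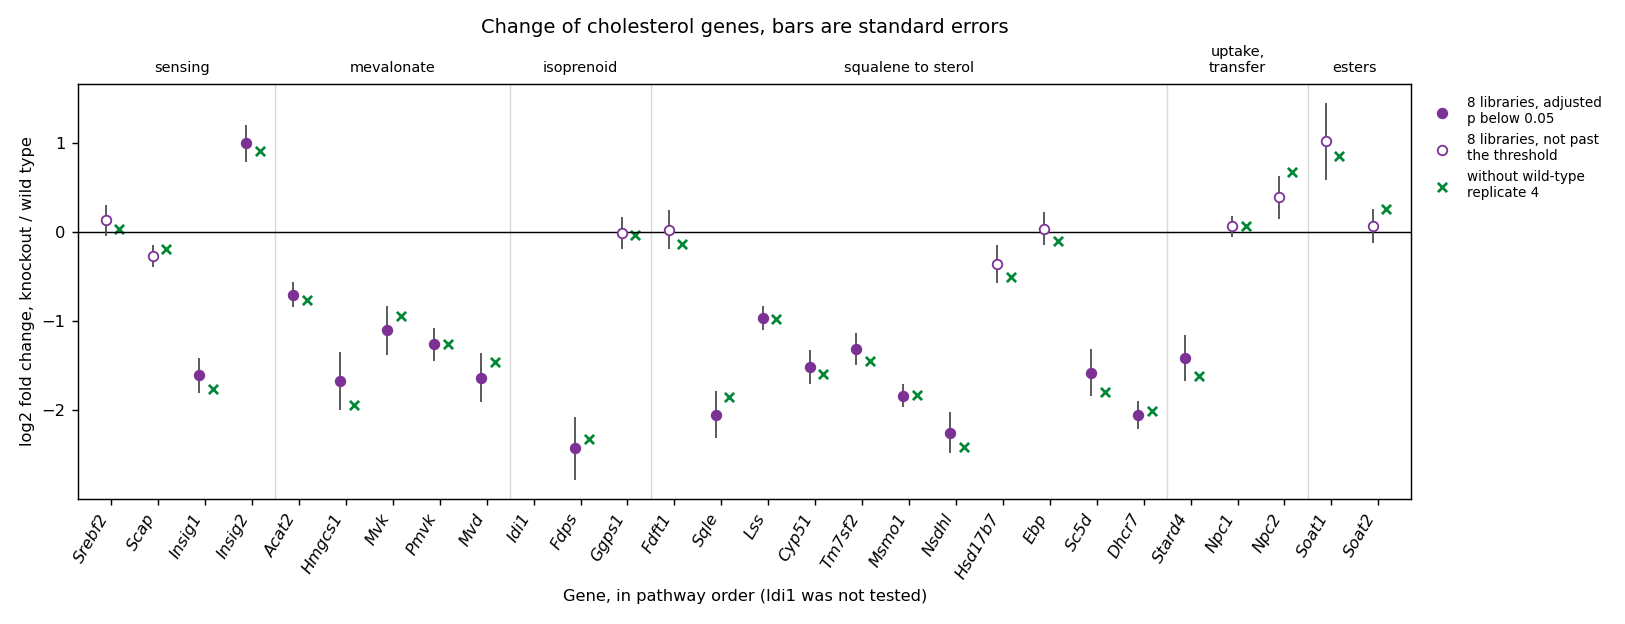
Log2 fold change, knockout over wild type, of the 27 tested genes with standard errors from edgeR on 8 libraries, filled where adjusted p was below 0.05, and the value without wild-type replicate 4 as a cross. Enzyme genes lie between -0.70 and -2.42 where filled, Insig2 is the filled point above 0 (0.99), and the crosses of Hsd17b7 (-0.50) and Npc2 (0.68) were called without that library and not by edgeR on all 8.

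Summed over the 19 enzyme genes, levels were 386 to 481 CPM in the knockout libraries and 603 to 1084 CPM in the wild-type libraries, where the 603 CPM belong to replicate 4 and the others began at 949.7 CPM. The genes of this sum differ in how abundant they are per length of transcript. By CPM per kilobase of annotated exon, Insig1 (70.8), Sc5d (55.1) and Ebp (52.0) were the highest of the 28 genes in wild type. In knockout Ebp led with 53.8, followed by Insig1 (23.4), Soat2 (22.1) and Sc5d (18.6). Soat1 was among the lowest in both groups, at 0.259 in knockout and 0.107 in wild type.

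Of the 3 uptake and transfer genes 1 fell and 2 did not pass. Stard4, a soluble carrier that moves cholesterol between membranes and a known sterol-regulated gene, was at 14.7, 19.8, 17.1 and 16.5 CPM in knockout and 54.8, 49.2, 52.6 and 17.99 CPM in wild type. Replicate 4 lay inside the knockout range, as for Hmgcs1, and the 3 other wild-type libraries were well above it. Stard4 (ENSMUSG00000024378) fell 2.65-fold (-1.41 ± 0.26, adjusted p = 0.00335), and by -1.61 without replicate 4.

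Npc1 and Npc2 encode the proteins that pass cholesterol out of the lysosome after lipoprotein uptake. Npc1 varied little, at 86.1, 91.6, 86.0 and 92.8 CPM in knockout and 91.1, 82.0, 83.7 and 84.3 CPM in wild type. Its groups overlapped, with a log2 fold change of 0.06 ± 0.12 (adjusted p = 0.742) and an interval of -0.19 to 0.32. The antisense gene Rmc1 overlaps the Npc1 (ENSMUSG00000024413) transcript over 323 bases and was at 68.5 ± 1.59 CPM in knockout against 75.0 ± 8.38 CPM in wild type (SD, n = 4 each). Npc2 was at 31.4, 37.2, 30.5 and 38.5 CPM in knockout and 23.1, 18.0, 23.8 and 46.7 CPM in wild type. Replicate 4 was above all knockout libraries and the other 3 below them, and the change of 0.39 ± 0.24 did not pass (adjusted p = 0.277). Without replicate 4 Npc2 (ENSMUSG00000021242) was called higher at 0.68 (adjusted p = 0.000231), and with all 8 libraries limma-voom with quality weights called it at 0.65 (adjusted p = 0.000572). The log2 ratio of Npc1 to Npc2 counts differed by -0.33 between genotypes, less than the wild-type SD of 0.59 (n = 4), and its exact permutation p, two-sided, was 0.314.

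Neither esterification gene passed the threshold. Soat1, the acyltransferase of macrophages and most tissues, had 2.36, 2.19, 2.85 and 2.74 CPM in knockout and 2.02, 1.10, 1.06 and 0 CPM in wild type. The groups did not overlap, but the counts were few (26 to 39 in knockout, 16, 8, 7 and 0 in wild type), and the 0 in replicate 4 allows up to 1.69 CPM. The log2 fold change of Soat1 (ENSMUSG00000026600) was 1.01 ± 0.44 (adjusted p = 0.120). Soat2, the form of hepatocytes and enterocytes that esterifies cholesterol for lipoproteins, was at 46.5, 45.1, 55.1 and 49.3 CPM in knockout and 43.3, 46.0, 34.0 and 68.0 CPM in wild type, with overlap. Its log2 fold change was 0.07 ± 0.19 (adjusted p = 0.838), with an interval of -0.35 to 0.48.

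Ratios to related genes outside the pathway were taken within each library. Acat1, the mitochondrial thiolase, rose (1.20 ± 0.21, adjusted p = 0.00242), from 120 ± 34.1 CPM in wild type to 277 ± 38.2 CPM in knockout (SD, n = 4 each). The log2 ratio of Acat2 to Acat1 was -3.41 to -3.64 in the knockout libraries and -1.37 to -1.88 in the wild-type libraries. The difference was -1.93, and it carries the uncertainty of the Acat2 counts given above (similar sequence in Acat3 and Tcp1). Srebf1, whose product drives fatty acid synthesis, fell (-2.09 ± 0.14, adjusted p = 2.77e-06) where Srebf2 showed no detected change, and the log2 ratio of Srebf2 to Srebf1 was 2.29 higher in knockout. Both of these ratios were apart in every library, with the smallest exact permutation p of 0.0286 (0.0343 adjusted over the 6 pairs). The ratio of Soat2 to Soat1 differed by -1.37 with the same p, but with 5 counts added to each gene in place of 0.5 it was -0.34 (exact permutation p = 0.114), and without wild-type replicate 4 it was -0.61.

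**Figure D4:**
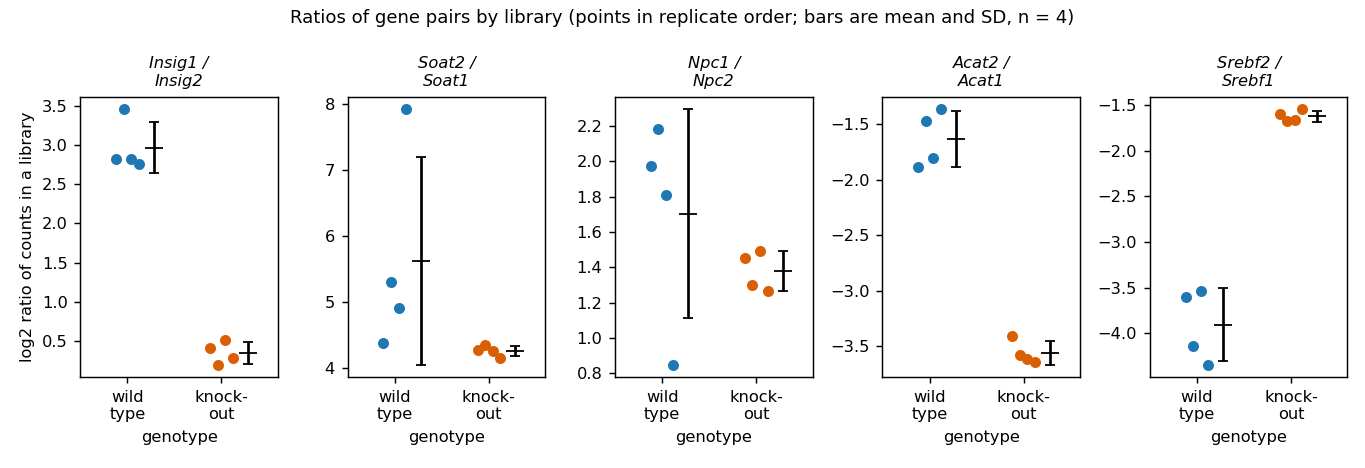
Log2 ratio of the counts of 5 gene pairs within each library, by genotype, with 4 points per genotype and the mean and SD beside them. The genotypes are apart for Insig1 over Insig2, Acat2 over Acat1 and Srebf2 over Srebf1, and overlap for Npc1 over Npc2. For Soat2 over Soat1 they differ mostly through a wild-type point at 7.92 from the library with 0 Soat1 counts. The Acat2 counts are uncertain, as given in the text.

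Of 48 other genes listed for SREBP processing, electron supply, isoprenoid branches, transfer and receptor uptake, all tested, 6 fell and 5 rose, beside 10.7% and 10.4% of all tested genes, and 37 did not pass. The median log2 fold change was 0.09. Without wild-type replicate 4 the counts were 10 lower and 15 higher, beside 17.5% and 17.8% of all tested genes. Under library size scaling they were 0 and 2, beside 0.939% and 4.25%. Rnf145, a ubiquitin ligase that acts on SCAP, fell (-0.60 ± 0.13, adjusted p = 0.00961), and Vcp, the ATPase that extracts proteins from the endoplasmic reticulum, rose (0.47 ± 0.15, adjusted p = 0.0420). The other 11 genes of SREBP processing and turnover did not pass.

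Of the 7 electron donors and accessory genes 2 fell, 1 rose and 4 did not pass. Por, the reductase that passes electrons to CYP51 and squalene epoxidase, rose from 315 ± 24.6 CPM in wild type to 610 ± 35.8 CPM in knockout (0.95 ± 0.13, adjusted p = 0.000505), without overlap. Cyb5b, a cytochrome b5 of the outer mitochondrial membrane, fell (-1.08 ± 0.13, adjusted p = 0.000256). Cyb5r3, the cytochrome b5 reductase that supplies desaturases and MSMO1, fell from 468 ± 151 CPM to 210 ± 7.65 CPM (-1.16 ± 0.23, adjusted p = 0.00539). In the isoprenoid branches, the dolichol synthesis subunits Dhdds (0.99 ± 0.17, adjusted p = 0.00233) and Nus1 (0.53 ± 0.17, adjusted p = 0.0494) rose. Pdss1, which makes the tail of coenzyme Q, fell (-1.13 ± 0.25, adjusted p = 0.0101), and the other 7 genes of that list did not pass. Of the 13 lysosomal and transfer genes 2 fell, 1 rose and 10 did not pass. Gramd1a (-0.75 ± 0.16, adjusted p = 0.00793) and Gramd1c (-0.98 ± 0.18, adjusted p = 0.00312), which carry sterol from the plasma membrane, fell. Scarb2, a lysosomal membrane protein, rose (0.78 ± 0.18, adjusted p = 0.0101), and without wild-type replicate 4 the list had 5 higher and 2 lower. None of the 5 receptor uptake genes passed, and Lrpap1 had the smallest adjusted p (0.40 ± 0.15, adjusted p = 0.0751). Without that library 3 were called higher, beside 17.8% of all tested genes. They were Mylip (0.99, adjusted p = 0.00139), Lrp1 (0.31, adjusted p = 0.0161) and Lrpap1 (0.41, adjusted p = 0.0225). Over all 8 libraries Lrp1 was at 594 CPM in knockout against 547 CPM in wild type (0.12, adjusted p = 0.671). With any of knockout replicates 2 to 4 or wild-type replicates 2 and 3 left out, the genes called higher numbered 3, and Por, Dhdds and Scarb2 were called in each of those fits.

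Core fatty acid synthesis genes, given for comparison, had 9 of 11 members lower (10.7% over all tested genes), none higher and a median of -2.09. Without wild-type replicate 4 all 11 were lower (17.5% over all genes), and under library size scaling 6 were (0.939%). Whether they differ from the cholesterol genes was not tested. This list, like the others, was compiled with earlier results known.

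**Figure D5:**
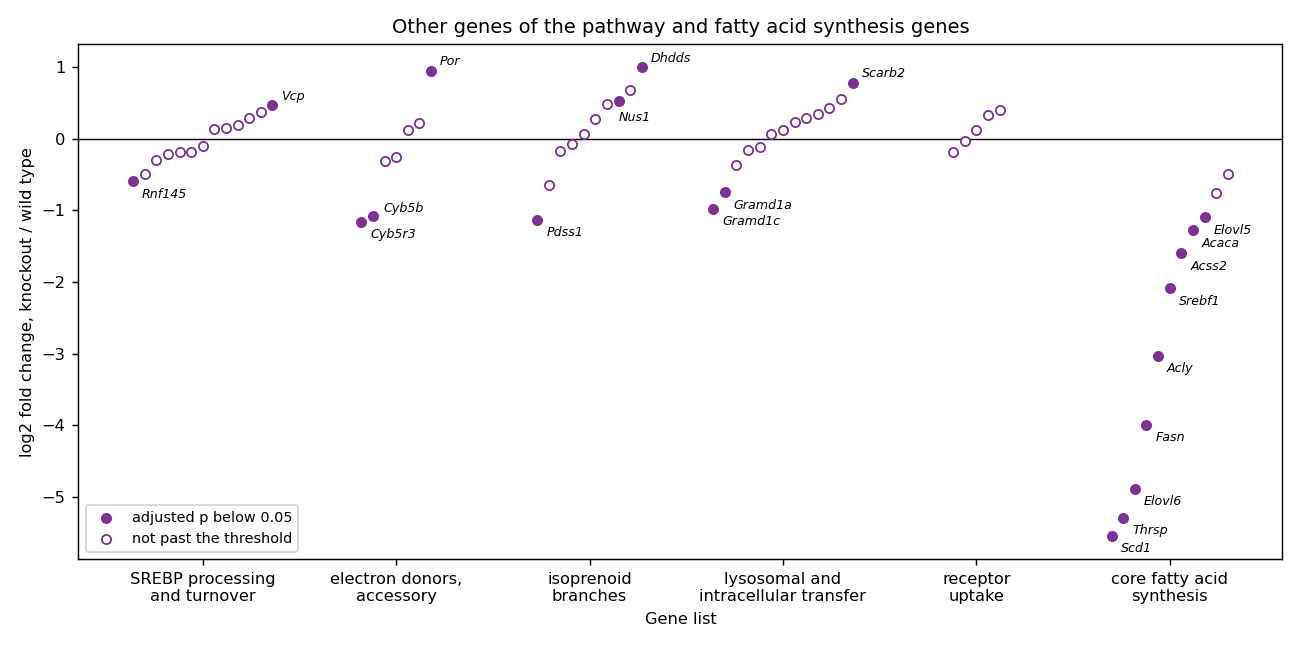
Log2 fold change, knockout over wild type, of the other listed genes by list, sorted within each list and filled where adjusted p was below 0.05 in the edgeR fit. Points of the first 5 lists scatter on both sides of 0, from -1.16 (Cyb5r3) to 0.99 (Dhdds), while the fatty acid synthesis genes all lie below 0.

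The sequence of miR-93-5p was compared with the 3′ UTRs of the 28 genes, since a microRNA represses transcripts that pair with its seed, bases 2 to 8. The mature miRNA comes from chr5:138165574-138165596 on the minus strand (RefSeq, GRCm38.p6), with the seed in capitals here.
mmu-miR-93-5p: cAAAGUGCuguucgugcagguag
Its target site GCACTTT lay in the longest annotated 3′ UTR (GENCODE M21, GRCm38) of 3 of the 28 genes, Lss, Stard4 and Soat1, against 14.6% of the 11579 tested genes with a 3′ UTR. Lss and Stard4 fell in knockout, and Soat1 did not pass the threshold. Taking any annotated 3′ UTR gave the same 3 genes. The windows of 29 bases around the site in Lss, from base 1551 of its 2411-base UTR, and in Soat1, from base 6026 of 6534, carry the site in capitals.
Lss: ttggccatggtGCACTTTgtgccctctgc
Soat1: ccgctgctggaGCACTTTccttcaggtga
The other 25 genes, the remaining 14 that fell among them, hold no such site in these UTRs.

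Cell type markers were followed beside these genes, because in bulk liver fewer cells of a type and less RNA per cell cannot be told apart. Hepatocyte markers, which define the labelled tissue, were abundant, with a summed level of 34790 to 39680 CPM in knockout and 42150 to 56020 CPM in wild type. Of these 2 of 6 were lower (Alb, -0.52 ± 0.14, adjusted p = 0.0233, and Ass1, -0.65 ± 0.20, adjusted p = 0.0430) and none higher. Without wild-type replicate 4, 3 of 6 were lower and 0 higher. Alb and Ass1 were each called in 10 of 20 alternatives, and with library size only Alb read 0.01 and none of the 6 was called. The marker counts of this paragraph stand beside 10.7% of all tested genes lower and 10.4% higher, or 17.5% and 17.8% without wild-type replicate 4. Kupffer cell markers were higher in 3 of 6, or in 5 of 6 without replicate 4, at a summed 107 to 128 CPM in knockout, 34.0 to 46.7 CPM in wild-type replicates 1 to 3 and 147 CPM in replicate 4. Endothelial markers were higher in 4 of 5 (60.1 to 127 CPM against 34.5 to 41.6 CPM). B cell markers were lower in 4 of 4 (2.34 to 6.77 CPM against 21.7 to 45.6 CPM) and T and NK cell markers in 2 of 3 tested (3.28 to 3.99 CPM against 5.64 to 11.4 CPM). Of 5 stellate markers 1, Col1a1, was lower (-1.47 ± 0.38, adjusted p = 0.0202). The stellate list summed to 83.4 to 89.1 CPM against 58.8 to 159 CPM, or 58.8 to 77.55 CPM in wild-type replicates 1 to 3. The single tested cholangiocyte marker (6.14 to 12.1 CPM against 3.16 to 4.26 CPM for the list) and neutrophil marker (2.19 to 3.96 CPM against 1.37 to 4.50 CPM) did not pass. Ly6g and Mpo were at 0 counts in all libraries. Without wild-type replicate 4, 1 stellate marker was lower and 1 higher. Of 3 cholangiocyte markers then tested, 1 was higher (Epcam, 2.05, adjusted p = 0.0194). T and NK cell markers were then lower in 3 of 4. The part of these shifts, of the mitochondrial share and of depth in the lower enzyme levels was not tested. Within knockout, replicate 1 had the highest mitochondrial share, and a link to the levels of these genes was not tested.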

How the data were processed

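Bulk RNA of 8 mouse liver libraries, 4 knockout and 4 wild type, was analysed from the raw count table deposited by the authors, which holds whole-number counts per Ensembl gene without normalization. Per the submitters' processing notes, the tools were cutadapt 4.2 and STAR 2.7.10a and the build was mm39. The counter, its annotation, its strand setting and its treatment of multi-mapping reads are not given in the sources used here. Totals were 5085860 to 10966019 counts per library, which sets the precision of low genes.

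Symbols, exon lengths and 3′ UTRs came from GENCODE M21 and promoters and miRNAs from RefSeq, both on GRCm38, so no coordinate of the count table's build is given. Symbols were found for 52073 of 56748 IDs. The genes and all lists were chosen with earlier results of these data known. Knockout was compared with wild type in R 4.3.3 with edgeR 4.0.16 (filterByExpr, TMM, robust quasi-likelihood fit, two-sided, Benjamini-Hochberg over all 13204 genes tested, threshold 0.05), with no covariate. The steps were tested on simulated data. The pathway genes are all reported, and of each other list up to 4 genes with the smallest p, the second gene of each pair, and overlapping genes or copies (Acat3, Tcp1, Ctsb, Rmc1, Arid4b, Gm13502, Gm35570), which were named after their values were seen. Copies were sought with BLAST 2.17.0+ at 95% identity over 200 bases. Ratios used counts plus 0.5 and an exact permutation test over libraries, adjusted over 6 pairs, of which 1 is not reported here. Libraries sharing a replicate number did not deviate together (correlations -0.19, -0.03, -0.07 and -0.09), so the numbers were not taken as pairs.

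Alternatives were DESeq2 1.42.0 (size factors and test), upper quartile and library size scaling, other filters, limma 3.58.1 voom (plain or with library quality weights), the replicate number as a block, mitochondrial genes left out, thinning to equal depth outside the mitochondrial genome and each library left out in turn.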

Additional observations from a re-analysis of the deposited data

Results flagged for a closer look

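In 8 groups of 4 libraries, out of 56 looked at (28 genes in each genotype), 1 library lay far from the other 3 by Dixon's criterion. Chance flags about 1 in 20 groups, which is 2.8 of 56. Of the 8, 6 were wild-type replicate 4, the library with the 77.8% mitochondrial share. It was low for Insig1 (138 CPM against 239 to 257 CPM), Hmgcs1 (30.4 CPM against 115 to 124 CPM), Tm7sf2 (26.4 CPM against 47.0 to 50.7 CPM) and Stard4 (18.0 CPM against 49.2 to 54.8 CPM). It was high for Idi1 (5.62 CPM against 0.758 to 1.37 CPM) and Sqle (18.6 CPM against 9.71 to 10.7 CPM). Over all 28 genes it was the lowest wild-type library in 14 and the highest in 9, and over all tested genes in 46.7% and 37.0%. Knockout replicate 1 was low for Srebf2 (25.4 CPM against 29.96 to 30.8 CPM) and Ebp (108 CPM against 129 to 131 CPM).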

How the results depend on the processing

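The 16 falls and the rise of Insig2 kept their direction under all 20 alternatives (19 for Mvk and Fdps), and their calls except under library size only and, for Mvk, with the replicate block or without knockout replicate 3 or 4. Library size only gave 3 of the genes lower, 0 higher and a median of -0.49, and 0 lower and 2 higher among the 48 other pathway genes. Over all 13204 tested genes it called 685 in either direction, against 2777 in the main fit. Voom with quality weights called 4 of the genes higher (Insig2, Npc2, Soat1 and Soat2) and 15 other pathway genes, and DESeq2 called 10 of the latter higher. Over all 13204 genes voom with quality weights called 4984 and DESeq2 3577, so their extra calls stand beside more calls among all genes. With the replicate block, 15 of the genes were lower (Mvk lost its call, adjusted p = 0.0734) and 1 higher, and 3 other pathway genes were higher. The block fit called 1267 of all 13204 genes. Same-numbered libraries did not deviate together, so the block is a number only. Leaving out each library in turn gave 15 to 17 genes lower, 1 to 2 higher and medians of -1.23 to -0.97, and 6 to 10 other pathway genes lower and 3 to 15 higher, with the 2, the 10 and the 15 all without wild-type replicate 4. Calls over all tested genes ran from 1489 (without knockout replicate 4) to 4853 (without wild-type replicate 4) in these fits. Soat2 over Soat1 was -0.34 with a pseudocount of 5.

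Signs turned only in fits where the gene was not called. Srebf2 was -0.078 after thinning, and Scap was 0.34 and Hsd17b7 0.14 with library size only. Ggps1 was 0.0035 with DESeq2 size factors, 0.54 with library size only, 0.045 without a filter, 0.0008 with DESeq2 and 0.016 with the block. Fdft1 was -0.11 with quality weights, -0.11 after thinning and -0.021 with nuclear library size only. Ebp was -0.061, -0.022 and -0.0095 under the same settings. Soat2 was -0.19 after thinning and -0.0005 with nuclear library size only. With 1 library left out, the values ran from -0.10 to 0.10 for Ggps1, from -0.14 to 0.15 for Fdft1, from -0.10 to 0.185 for Ebp and from -0.065 to 0.26 for Soat2. The causes were not tested. Depth limits Idi1, Fdps, Mvk and Soat1, with under 60 counts per library.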
